A study of Mus musculus with 6 samples.

Results

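The mitochondrially encoded genes are those carried by the circular mitochondrial DNA. They were taken here as every gene whose symbol starts with mt-, which gave 37 of the 28048 genes in the count tables. The 37 genes comprised 2 genes of ribosomal RNA (mt-Rnr1 and mt-Rnr2), 22 genes of transfer RNA and 13 protein genes. The proteins are all parts of oxidative phosphorylation: 7 subunits of complex I (the mt-Nd genes), cytochrome b of complex III (mt-Cytb), 3 subunits of complex IV (the mt-Co genes) and 2 of complex V, the ATP synthase (mt-Atp6 and mt-Atp8). All 37 were found by Ensembl identifier and symbol on the mitochondrial chromosome of GRCm38 in the GENCODE M21 annotation, 28 of them on the plus strand and 9 on the minus strand. The minus strand carries mt-Nd6 and 8 transfer RNA genes.

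Mitochondrial DNA is transcribed from both strands into long precursors that run over many genes. Transfer RNAs lie between the other genes, and cutting them out frees the ribosomal and messenger RNAs. Most of these messenger RNAs then receive a poly(A) tail, while mature transfer RNAs end in CCA. Reverse transcription from an oligo(dT) primer, as in sci-RNA-seq3, therefore reaches mitochondrial messenger RNAs by their tails and other RNAs by stretches rich in A. The transcripts of the nucleus and of the mitochondria are made by different polymerases, and the mitochondrial share of a cell's RNA is widely used as a limit on cell quality.

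The data came from 6 sci-RNA-seq3 libraries, 1 for each combination of genotype and starting population. WT mice were C57BL/6 with a yellow fluorescent reporter (YFP) in both copies of Bcl11b, a transcription factor of T-cell commitment, and ΔTE mice carried the same reporter on both copies but lacked the timing enhancer of Bcl11b on both, so the WT mice also carry the reporter. Bone marrow progenitors of 6 to 8 mice per genotype, males and females of 2 to 4 months, were pooled, enriched for CD117 and grown on OP9-DL1, a mouse stromal line that presents a Notch ligand. Cells sorted as DN1 (CD44+CD25-), DN2a (CD25+, Bcl11b reporter off) or DN2b (CD25+, reporter on) were then grown on fresh OP9-DL1 for 4 days with cytokines (Flt3-L and IL-7 among them) and harvested together with whatever feeder cells came along. The labels name the molecule nuclear RNA, and their protocol describes cells fixed with paraformaldehyde and, later on, nuclei that were permeabilized. A library was spread over 3 reverse-transcription wells, 18 in all, which are technical parts of 1 culture. With 1 library per condition, differences between genotypes have no replicate, and no test was made between them. All intervals below are exact 95% intervals that cover counting error only.

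Barcodes that held 200 or more genes and no more than 2000 unique molecular identifiers (UMIs, each standing for 1 captured RNA molecule) were summed, 83807 of 1170130 barcodes. The libraries gave between 4674125 and 10157659 UMIs in 7842 to 20007 such barcodes, and no barcode occurred in 2 libraries. The study's own filter also removed barcodes above 30% mitochondrial UMIs. Applied here on top of the limits above, this limit left 60671 barcodes. That is fewer than the cells the paper reports, so the study's filter was not reproduced exactly. Since that limit acts on the very genes described here, the main values are without it, and values with it are given for the sums and where they change a call. Levels are UMIs of a gene or group of genes per UMI of the nuclear-encoded genes, given per 1000 for groups and, for single genes, as nuclear CPM, the UMIs per 1000000 nuclear-encoded UMIs. The haematopoietic marker Ptprc was seen in every library, with 2457 to 6110 UMIs, and so was the stromal marker Col1a2, with 2867 to 5318 UMIs.

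Of the 37 genes, 28 had at least 1 UMI, 23 had UMIs in all 6 libraries, and 16 had at least 100 UMIs over the 6 libraries. The ribosomal RNA genes dominated. mt-Rnr1, the RNA of the small mitochondrial ribosomal subunit, had 5507469 UMIs, and mt-Rnr2, that of the large subunit, had 5722338. Together they made up between 89.2% (WT DN2a) and 92.4% (WT DN2b) of the mitochondrial UMIs of a library, and the 13 protein genes between 7.49% and 10.7%. Per kilobase of gene, mt-Rnr1 stood at 164200 and mt-Rnr2 at 103000 nuclear CPM. The highest protein genes on that scale were mt-Cytb at 5328 and mt-Nd1 at 5195.

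The protein genes fell into separate sets by level. The 7 genes mt-Nd5, mt-Cytb, mt-Nd4, mt-Nd1, mt-Nd2, mt-Co1 and mt-Nd6 held 99.9% of the 1086151 UMIs of protein genes. mt-Nd5 had 277717 UMIs, mt-Cytb 214000, mt-Nd4 179532, mt-Nd1 174562, mt-Nd2 154046 and mt-Co1 80717, while mt-Nd6, the protein gene of the minus strand, had 4423. The other 6, mt-Co2, mt-Atp8, mt-Atp6, mt-Co3, mt-Nd3 and mt-Nd4l, had 1154 UMIs together, which was 0.106%. Per kilobase, these 6 genes lay between 2.43 (mt-Co3) and 34.4 (mt-Atp6) nuclear CPM, against 243 for mt-Nd6, 1488 for mt-Co1 and 3711 to 5328 for the rest.

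The 6 low genes are neighbours on the mitochondrial DNA, between mt-Co1 and mt-Nd4. Their stretch has a known near-identical copy in the nuclear genome. Among the GENCODE M21 transcripts of nuclear genes, 7 pseudogenes within 4663 bases of chromosome 1 (GRCm38, chr1:24611535-24616197, minus strand) matched mitochondrial genes at 99% identity or more. The copies Gm28661 of mt-Co2, Gm10925 of mt-Atp6, Gm28437 of mt-Co3 and Gm10222 of mt-Nd4l had no differing base over 681, 678, 783 and 294 bases, which is the gene but for its last bases. The copy Gm28438 of mt-Nd3 differed at 1 base. Matches on a single autosome were left out, so absent copies refer to the matches kept. mt-Atp8 lies between copied genes and had no match of its own. Its last 43 bases overlap mt-Atp6 and so lie within the match to Gm10925, but are under the minimum of 50 bases. Only annotated nuclear transcripts were searched, so the bases between the copies, where the rest of mt-Atp8 would lie, were not covered. Of the flanking genes, mt-Co1 was covered over its last 31.3% (Gm29216, 1 difference) and mt-Nd4 over its leading 63.6% (Gm28439, no difference). The remaining protein genes had no match at 99% among the matches kept. Their own nuclear copies, such as Gm11410 for mt-Cytb (92.9%) and Gm4076 for mt-Nd5 (95.2%), were less alike.

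The aligned stretches are 60 bases of each gene, 5′ to 3′ on the gene's strand. Bases that differ between gene and copy are in capitals. For mt-Nd3 and mt-Co1 the stretch holds the only base that differs within the match. It does not stand for the rest of the match, which is identical. The mt-Nd3 stretch is at the start of its gene, and the mt-Co1 stretch stops before the end of its gene at chrM:6872. The mitochondrial stretches are chrM:7634-7693 (mt-Co2), chrM:9459-9518 (mt-Nd3) and chrM:6390-6449 (mt-Co1), and those of the copies are chr1:24614885-24614944, chr1:24613060-24613119 and chr1:24616129-24616188 on the minus strand.
mt-Co2: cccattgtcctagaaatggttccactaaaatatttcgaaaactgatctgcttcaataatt
Gm28661: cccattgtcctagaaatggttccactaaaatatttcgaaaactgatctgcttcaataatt
mt-Nd3: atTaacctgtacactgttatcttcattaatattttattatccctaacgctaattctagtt
Gm28438: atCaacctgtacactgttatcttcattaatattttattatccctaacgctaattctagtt
mt-Co1: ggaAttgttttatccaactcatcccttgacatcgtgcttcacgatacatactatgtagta
Gm29216: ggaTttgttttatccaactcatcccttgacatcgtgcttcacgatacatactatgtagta
The mt-Co2 stretch cannot be told from its copy, and the other pairs differ at 1 base. None of the 7 copies has a row in the count tables. How reads that match several places were counted is not given in the sources used here, and its part in the low counts of the 6 genes was not tested.

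**Figure D1:**
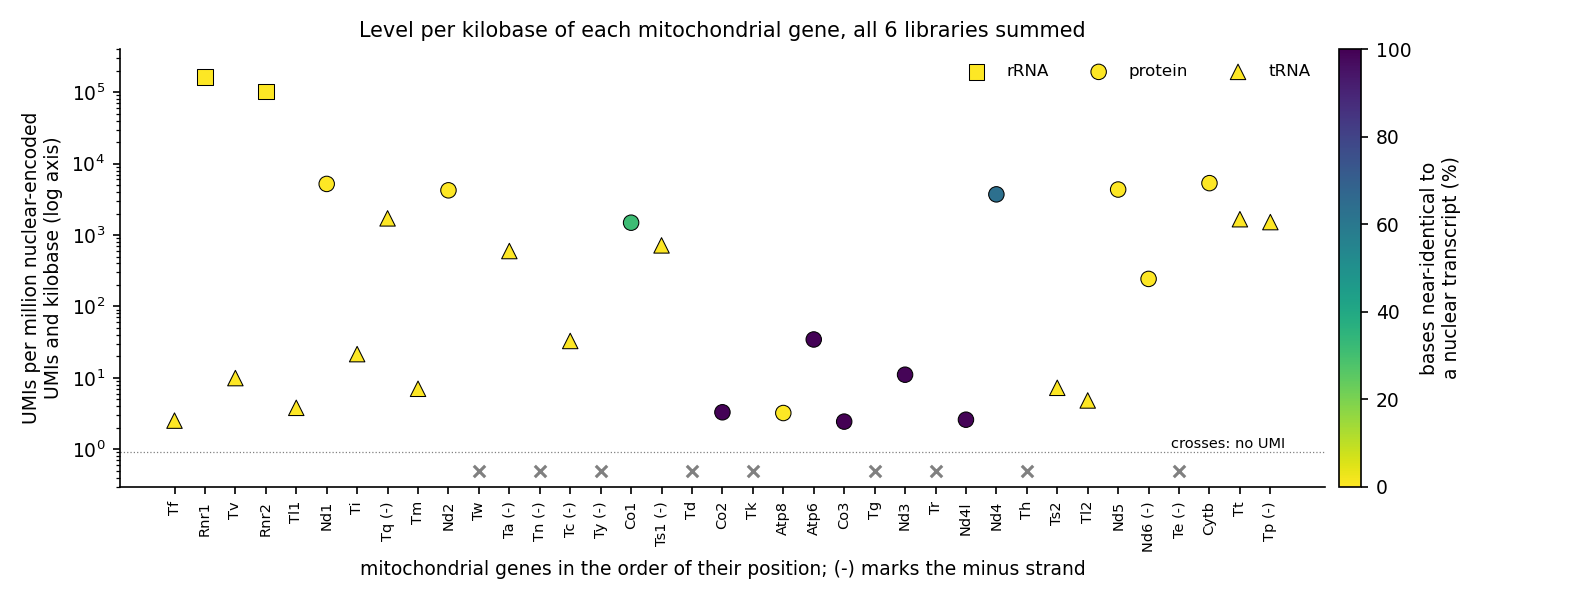
Level of each of the 37 mitochondrial genes in the order of their position on the mitochondrial DNA, as nuclear CPM per kilobase, on a log axis, with all 6 libraries summed. Squares are rRNA, circles protein and triangles tRNA genes, and crosses mark the 9 genes without a UMI. Darker colours mark a larger share of bases that match a nuclear transcript at 99% or more, among the matches kept. The dark circles between Co1 and Nd4 and the paler mt-Atp8 among them (3.21) lie between 2.43 and 34.4, below the other 7 protein genes. The pale colour of mt-Atp8 means no match to an annotated transcript over at least 50 bases, and not that a nuclear copy is absent.

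Transfer RNA genes had 15142 UMIs, and 5 of the 22 genes held 98.6% of them. These were mt-Tq (4265 UMIs), mt-Tt (3917), mt-Tp (3569), mt-Ts1 (1734) and mt-Ta (1445), which carry glutamine, threonine, proline, serine and alanine. Of these 5, mt-Tt was the only gene of the plus strand. Another 8 genes had 6 to 76 UMIs, and 9 genes (mt-Tw, mt-Tn, mt-Ty, mt-Td, mt-Tk, mt-Tg, mt-Tr, mt-Th and mt-Te) had none, not even in barcodes that the filters removed. A count of 0 in the 35111963 nuclear-encoded UMIs behind these sums allows up to 3 UMIs, or 0.0854 nuclear CPM.

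Among the transfer RNA genes, the gene with the most UMIs had a shorter longest run of A than a gene with none. mt-Tq (chrM:3772-3842, minus strand) and mt-Tr (chrM:9808-9875, plus strand) are shown for that contrast, with their longest run of A in capitals, 2 bases in mt-Tq and 8 in mt-Tr.
mt-Tq: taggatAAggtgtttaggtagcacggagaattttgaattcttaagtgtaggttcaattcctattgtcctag
mt-Tr: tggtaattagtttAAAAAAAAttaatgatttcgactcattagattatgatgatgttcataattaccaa
This pair does not stand for the whole list. The longest run was 3 bases in mt-Tn, mt-Tg and mt-Te, which had no UMI. It was also 3 in mt-Tt, mt-Ts1 and mt-Ta, which had UMIs. The pair also differs in position. mt-Tr lies between mt-Nd3 and mt-Nd4l, in the stretch of low protein genes between mt-Co1 and mt-Nd4, and mt-Tq lies outside it. mt-Td, mt-Tk and mt-Tg lie in that stretch too and had no UMI, whereas mt-Ts1 lies there and had UMIs. mt-Tw, mt-Tn, mt-Ty, mt-Th and mt-Te lie outside it and had none. Whether position or the run of A bears on these counts was not tested. mt-Tq overlaps mt-Ti of the opposite strand by 3 bases, mt-Ts1 overlaps mt-Co1 by 3, and mt-Nd6 overlaps mt-Nd5 by 14. Whether the counting used the strand is not given in the sources used here, so UMIs of the minus-strand genes, 0.126% of all mitochondrial UMIs, cannot be told from RNA of the opposite strand.

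The WT DN2a library stood apart from the other 5 in its mitochondrial RNA. Mitochondrial genes made up 14.7% of its UMIs, against 28.8% in WT DN1, 30.2% in WT DN2b, 27.5% in ΔTE DN1, 26.2% in ΔTE DN2a and 34.5% in ΔTE DN2b. Its 3 wells stood at 14.1%, 13.9% and 16.2%, below all 15 wells of the other libraries. The shift was seen over the whole range of barcodes: the median barcode of WT DN2a had 13.6% mitochondrial UMIs and its 95th percentile was 27.4%, while the other medians lay between 24.1% and 31.7%. No barcode of WT DN2a was above 50%, against 0.928% to 6.75% of barcodes elsewhere. The median barcode of WT DN2a had 331 nuclear-encoded UMIs, within the 331 to 370 of the other libraries, but 54 mitochondrial UMIs against 120 to 165. Of its barcodes, 5.01% had no UMI of a protein gene, against 0.0893% to 0.559% elsewhere.

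Wells of 1 library also differed among themselves. In ΔTE DN2a the wells had 26.1%, 17.6% and 31.3% mitochondrial UMIs, so that its second well came close to WT DN2a. In WT DN1 they had 32.0%, 29.9% and 23.7%, and in WT DN2b 35.0%, 29.8% and 26.1%. The wells of ΔTE DN1 lay within 27.2% and 27.8%, and those of ΔTE DN2b within 30.7% and 36.3%. The 30% limit therefore took very different shares of the barcodes: between 1.48% and 4.43% in the wells of WT DN2a and 1.85% in the second well of ΔTE DN2a, but between 15.0% and 64.3% in the other 14 wells. By library it removed 2.59% of the barcodes of WT DN2a and 56.6% of those of ΔTE DN2b. Near that limit lay 149 (29% to 30%) and 124 (30% to 31%) barcodes of WT DN2a, and 708 and 653 of WT DN1.

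Barcodes with fewer than 200 genes, which the filter left out, followed their well. In WT DN2a they had 140.6, 140.8 and 166 mitochondrial UMIs per 1000 nuclear-encoded UMIs, and the barcodes kept had 164, 161 and 193. In the second well of ΔTE DN2a these values were 203 and 214, and in the third well 430 and 455.

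**Figure D2:**
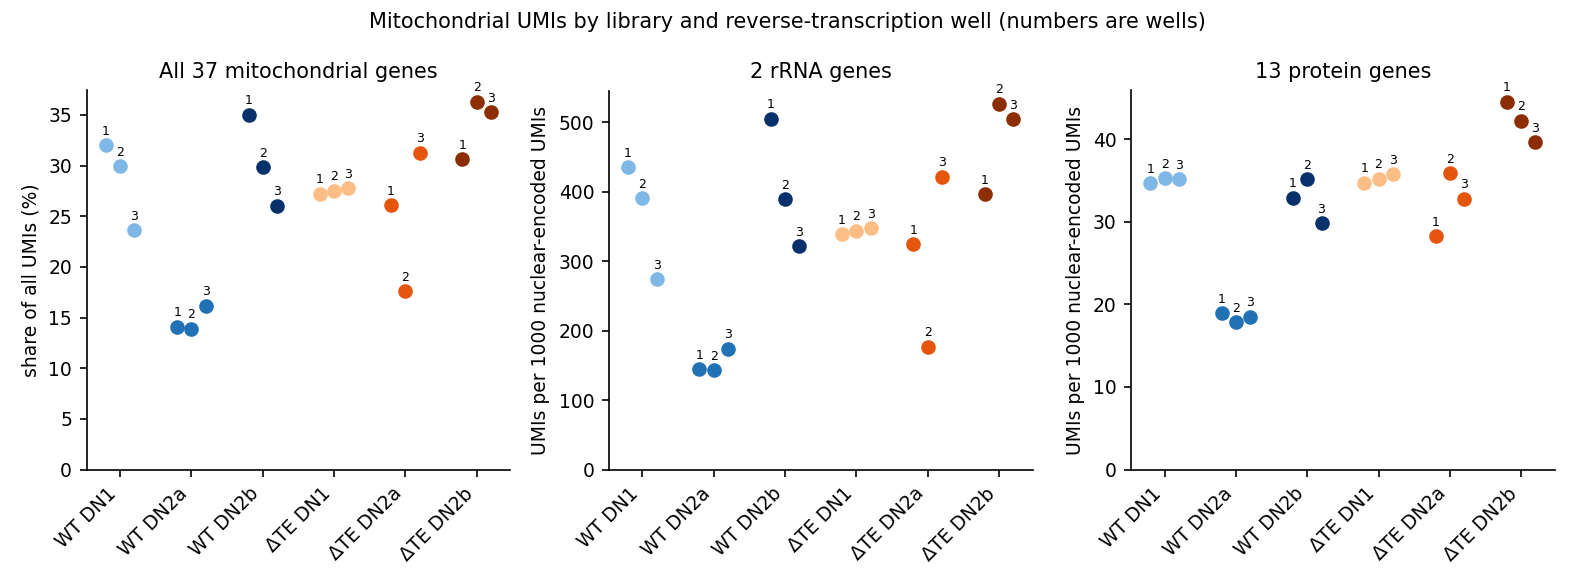
Mitochondrial UMIs in the 18 reverse-transcription wells, 3 per library, as the share of all UMIs (left), and the rRNA genes (middle) and protein genes (right) per 1000 nuclear-encoded UMIs. Points are wells, numbered within each library. The 3 wells of WT DN2a are the lowest in each panel, and the second well of ΔTE DN2a is low for rRNA at 177 and not for protein genes at 35.9.

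The protein genes were less uneven than the ribosomal RNA. Per 1000 nuclear-encoded UMIs, the 13 protein genes had 34.7 to 35.3 UMIs in the wells of WT DN1 and 34.7 to 35.7 in those of ΔTE DN1. They had 29.8 to 35.2 in WT DN2b, 28.3 to 35.9 in ΔTE DN2a and 39.7 to 44.6 in ΔTE DN2b. The wells of WT DN2a lay apart again, at 17.9 to 18.9. The second well of ΔTE DN2a, the lowest outside WT DN2a in ribosomal RNA, had the highest protein-gene level of its library, 35.9.

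Single members split along this line. mt-Nd5 followed the ribosomal RNA from well to well, whereas mt-Nd1, mt-Nd4 and mt-Cytb did not. In the 3 wells of ΔTE DN2a, mt-Rnr1 stood at 144600, 86700 and 223600 nuclear CPM and mt-Nd5 at 6527, 6036 and 8576, so that both were lowest in the second well. mt-Nd1 stood at 4516, 7076 and 5156 and mt-Cytb at 5549, 8858 and 6208, highest in that well. In WT DN1 the third well was lowest in mt-Rnr1 (115400, against 207400 and 193100) and in mt-Nd5 (7593, against 10340 and 9927), and highest in mt-Cytb (7376, against 6479 and 6674) and mt-Nd4 (6236, against 5460 and 5566).

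Over the 18 wells, Pearson's r with the summed ribosomal RNA genes, on log2 levels, was 0.96 for mt-Nd5, 0.86 for mt-Nd2, 0.63 for mt-Nd4, 0.59 for mt-Cytb and 0.55 for mt-Nd1. With the mean of each library taken away, it was 0.85 for mt-Nd5, 0.14 for mt-Nd2, −0.77 for mt-Nd4, −0.76 for mt-Cytb and −0.70 for mt-Nd1. For mt-Co1 the values were 0.60 and −0.03, and for mt-Nd6 0.59 and 0.42. These are descriptions over wells that share libraries and cultures, and the within-library values rest on 3 wells each. Of the 7387 nuclear genes with at least 20 UMIs in every well, the median r was −0.032, with 0.45 at the 95th percentile. The most alike were Myo9a (0.82), Srgap3 (0.81), Dock4 (0.81), Maml2 (0.81) and Zfp423 (0.81). Within libraries Maml2 had 0.82, Myo9a and Srgap3 had 0.65 each, Dock4 had 0.63 and Zfp423 had 0.17. These nuclear genes were picked by their r over the same wells, which can raise these values. They cannot be ranked against the members.

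**Figure D3:**
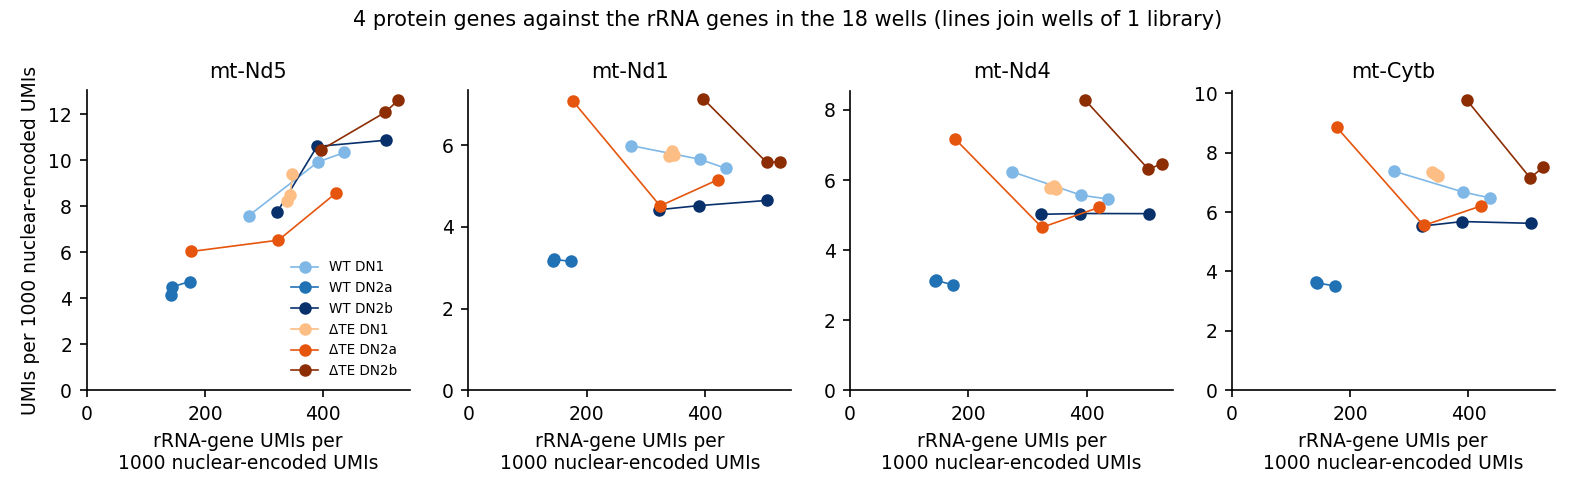
Levels of mt-Nd5, mt-Nd1, mt-Nd4 and mt-Cytb against the summed rRNA genes in the 18 wells, both per 1000 nuclear-encoded UMIs, with lines joining the 3 wells of a library. mt-Nd5 rises along the lines, whereas in ΔTE DN2a and ΔTE DN2b the well lowest in rRNA is the highest in mt-Nd1, mt-Nd4 and mt-Cytb.

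The question the design puts is how the levels differ between ΔTE and WT cells after each start. In the DN2a start, mitochondrial genes were higher in the ΔTE library, in the DN2b start they were slightly higher, and in the DN1 start the levels were close. All mitochondrial genes together had 405 UMIs per 1000 nuclear-encoded UMIs in WT DN1 and 379 in ΔTE DN1, a log2 ratio of −0.096 (−0.098 to −0.093), and the wells overlapped. For the DN2a start they had 173 in WT and 356 in ΔTE, a log2 ratio of 1.04 (1.04 to 1.05), and every ΔTE well was above every WT well. For the DN2b start they had 432 in WT and 526 in ΔTE, a log2 ratio of 0.28 (0.28 to 0.29), with overlapping wells.

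The DN2a difference rests on the WT DN2a library, which had no second library to set beside it. The level of ΔTE DN2a, 356, was itself below WT DN1 at 405 and WT DN2b at 432. Within the 30% limit, the DN2a ratio was 0.72 (0.72 to 0.72), the DN1 ratio −0.0044 (−0.0078 to −0.0009) and the DN2b ratio 0.079 (0.073 to 0.085). Leaving out single wells gave ratios from 0.83 to 1.20 in DN2a and from −0.25 to 0.042 in DN1, where leaving out the first WT well turned the sign and leaving out the third gave −0.25. For the DN2a start the lowest value came without the third ΔTE well and the highest without the second. In DN2b the ratios without 1 well lay between 0.12 and 0.46.

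Barcodes rich in stromal markers, defined further on, and those with haematopoietic markers alone gave the DN2a difference separately. In stromal barcodes the ratio was 1.28, in haematopoietic barcodes it was 0.97, and in all barcodes of fewer than 200 genes it was 1.07. For the DN2b start these ratios were 0.37, 0.27 and 0.32, and for the DN1 start −0.024, −0.098 and −0.11. These subsets were chosen after seeing the data. The feeder line was the same in all cultures.

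For the protein genes alone, the levels were 35.0 UMIs per 1000 nuclear-encoded UMIs in WT DN1 and 35.2 in ΔTE DN1, a log2 ratio of 0.0076 (−0.00056 to 0.016). They were 18.4 and 31.5 for the DN2a start, a ratio of 0.78 (0.77 to 0.79), and 32.4 and 42.0 for the DN2b start, a ratio of 0.37 (0.36 to 0.39). In the DN2a and DN2b starts all ΔTE wells were above all WT wells, and in the DN1 start the wells overlapped. Within the 30% limit the ratios were −0.028, 0.68 and 0.23, and the DN2b wells then overlapped. By complex, the DN2a levels in WT and ΔTE were 13370 and 22370 nuclear CPM for complex I, 3596 and 6512 for complex III, 1403 and 2604 for complex IV, and 12.9 and 23.7 for complex V.

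Gene by gene, 15 members had at least 100 UMIs in both libraries together in each start. A ratio was called where it passed 1.5-fold and its interval left out equal levels. In the DN2a start 11 of the 15 members were called higher and 0 lower, where 2.19% of 10256 nuclear genes were called higher and 1.27% lower. In the DN1 start 0 members were called in either direction, with 0.848% of 10141 nuclear genes higher and 1.29% lower, and in the DN2b start 0 again, with 1.98% of 8936 higher and 1.79% lower. The median log2 ratio of the members was 0.018, 0.80 and 0.31 for the DN1, DN2a and DN2b starts, beside medians of 0.00027, −0.0078 and 0.00066 over the nuclear genes. The members are cut from shared precursor RNAs and are not independent.

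In the DN2a start mt-Rnr2 had 75960 nuclear CPM in WT and 165700 in ΔTE, a log2 ratio of 1.12 (1.12 to 1.13). mt-Rnr1 had 77910 and 157900, a ratio of 1.02 (1.01 to 1.02), and its wells overlapped, since the second ΔTE well at 86700 lay below the third WT well at 89370. Of the protein genes, mt-Co1, the catalytic core of complex IV, had 1402 and 2598, a ratio of 0.89 (0.86 to 0.92). mt-Cytb had 3596 and 6512, a ratio of 0.86 (0.84 to 0.88). mt-Nd4 (0.81), mt-Nd2 (0.80), mt-Nd1 (0.74) and mt-Nd5 (0.68) were also called, as was mt-Atp6 at 0.88 (0.51 to 1.26) on 157 and 100 UMIs. Every ΔTE well was above every WT well for these 7 protein genes. The share of nuclear genes whose wells separate in this way is not given here, and the wells are technical parts of 1 culture per genotype. With the 30% limit applied, 9 of 15 members were called higher and 0 lower, where 169 of 9899 nuclear genes were called higher and 469 lower. mt-Nd5 was no longer among the called members at 0.47 (0.45 to 0.50), and mt-Rnr1 had a ratio of 0.63 and mt-Rnr2 of 0.81. Without the third ΔTE well mt-Nd5 had 0.52, and without the second ΔTE well mt-Atp6 had 0.45, both under 1.5-fold.

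mt-Nd6 went apart from the other protein genes. It had 108.7 nuclear CPM in WT DN2a and 105.7 in ΔTE DN2a, a log2 ratio of −0.040 (−0.18 to 0.10), and the WT wells (101.9, 126.6 and 94.5) and ΔTE wells (125.9, 59.7 and 110.0) overlapped. The interval of mt-Nd6 lay below that of each of the other 7 protein genes in this start. In stromal barcodes its ratio was −0.15 and in haematopoietic barcodes −0.032, and within the 30% limit it was −0.21 (−0.38 to −0.047). In the DN1 start its ratio was −0.052 (−0.19 to 0.084), and in the DN2b start 0.21 (0.036 to 0.39), where it was not apart from mt-Nd5 at 0.31 (0.29 to 0.33).

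Among the transfer RNA genes, mt-Tp (0.82, 0.67 to 0.97) and mt-Tq (0.62, 0.47 to 0.76) were called higher in ΔTE DN2a. Both calls were lost without the first ΔTE well, where mt-Tp had 0.31 and mt-Tq 0.35. That of mt-Tq was also lost without the third WT well, at 0.55, and within the 30% limit, at 0.56. mt-Ts1 (0.57, 0.33 to 0.81), mt-Tt (0.53, 0.38 to 0.68) and mt-Ta (0.31, 0.078 to 0.54) were not, although their intervals lay above 0. In the DN2b start the largest ratios were those of mt-Cytb at 0.51 (0.49 to 0.54) and mt-Tt at 0.49 (0.29 to 0.69), and in the DN1 start that of mt-Tp at 0.23 (0.082 to 0.38). The members under 100 UMIs in both libraries together, mt-Co2, mt-Co3, mt-Nd3, mt-Nd4l, mt-Atp8 and the sparse transfer RNA genes, had 0 to 40 UMIs per library and were given no ratio.

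**Figure D4:**
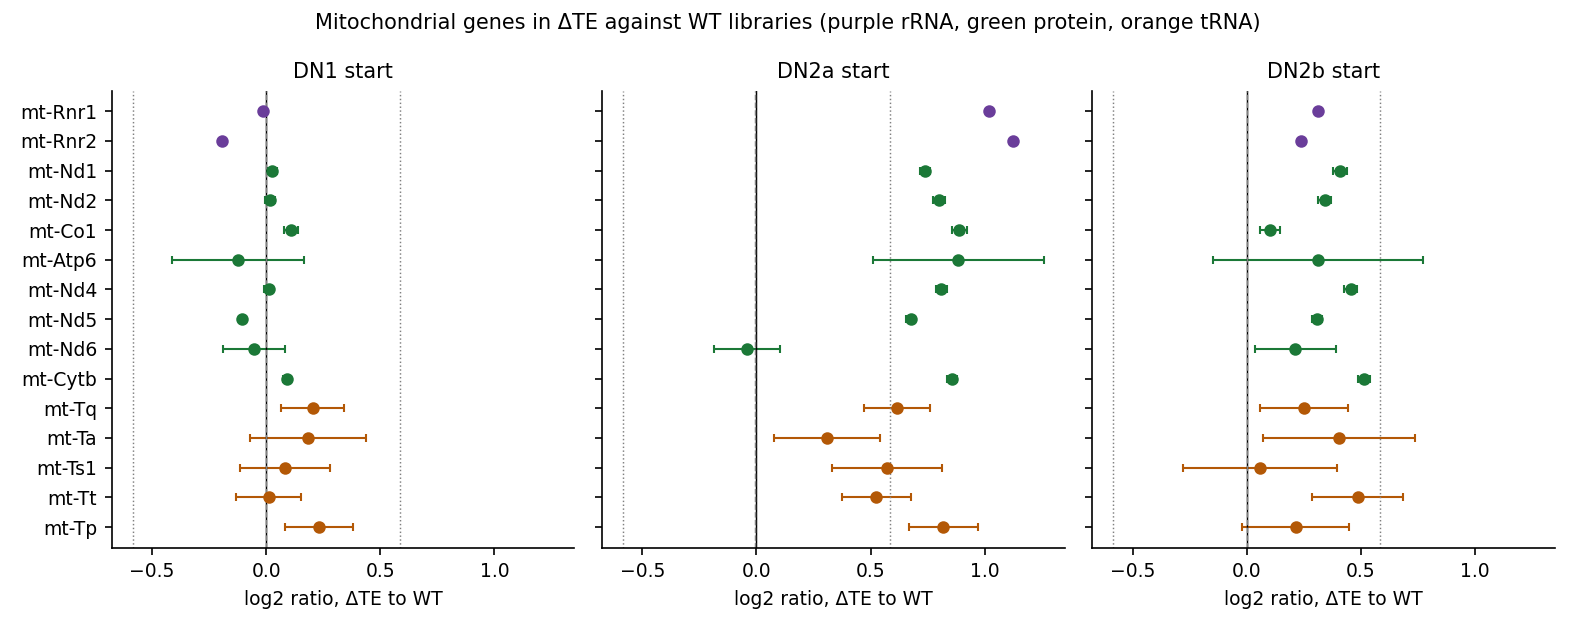
Log2 ratio of ΔTE to WT for the 15 members with at least 100 UMIs in both libraries of a start together, with exact 95% counting intervals. Solid lines mark equal levels, dotted lines 1.5-fold and dashed lines the median nuclear gene. In the DN2a start 14 of 15 members lie right of 0 and mt-Nd6 at −0.040 does not.

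Of 29 nuclear genes for mitochondrial transcription, RNA handling and DNA upkeep, 28 had at least 100 UMIs in the WT and ΔTE libraries together in the DN1 start and also in the DN2a start, and 23 did in the DN2b start. In the DN1 and DN2a starts 0 of them were called, with medians of −0.020 and 0.0041. In the DN2b start 1 was called higher and 1 lower, with a median of 0.0047. Fastk, an RNA-binding protein of mitochondria, had 78 UMIs in WT DN2b and 101 in ΔTE DN2b, a log2 ratio of 0.60 (0.16 to 1.04). Fastkd2, which binds mt-Rnr2 RNA, had 84 and 41, a ratio of −0.81 (−1.39 to −0.26). In the DN2a start, Tfam, which packs and activates mitochondrial DNA, had 63.3 nuclear CPM in WT and 63.5 in ΔTE, and Polrmt, the mitochondrial RNA polymerase, had 24.6 and 24.0. Lrpprc, which stabilises mitochondrial messenger RNAs, had 134 and 122, a ratio of −0.13 (−0.27 to −0.0023).

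Genes listed here as collecting reads of ribosomal RNA were followed beside these values, and 3 of a list of 7 were in the tables. Lars2, the nuclear gene of the mitochondrial leucyl-tRNA synthetase, had 2626 nuclear CPM in the first well of ΔTE DN2a and 122 to 285 in the other 17 wells. CT010467.1 was also highest in that well, at 3523, against 881 to 3009. That well had 26.1% mitochondrial UMIs, between the other wells of its library. With these genes left out of the nuclear base, the DN2a ratio of all mitochondrial genes was 1.05.

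Finally, the level was compared between kinds of barcodes within each library. A barcode was called stromal with at least 3 UMIs of 10 stromal markers (collagens, Sparc, Bgn and others) and more of these than of 12 haematopoietic markers, and haematopoietic with at least 1 haematopoietic and no stromal marker UMI. Stromal barcodes made up 9.06% to 14.4% of a library and haematopoietic barcodes 75.2% to 81.8%. The kinds were compared over the same bins of total UMIs, since marker-rich barcodes are deep, and the 6 libraries were the units of an exact two-sided sign-flip permutation test, with Benjamini-Hochberg adjustment over 5 comparisons. With 6 libraries the smallest p this test can give is 0.03125.

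Stromal barcodes had more mitochondrial UMIs than haematopoietic barcodes in 6 of 6 libraries. Per 1000 nuclear-encoded UMIs they had 691 against 371 in WT DN1, 678 against 373 in WT DN2b, 686 against 342 in ΔTE DN1, 521 against 330 in ΔTE DN2a and 870 against 459 in ΔTE DN2b. In WT DN2a the difference was the smallest, 217 against 168. The mean log2 ratio was 0.79 ± 0.23 (SD, n = 6; exact permutation p = 0.03125, adjusted p = 0.0521), so it missed the adjusted threshold at the smallest p the design allows. The protein genes alone gave 0.70 ± 0.26 (SD, n = 6; exact permutation p = 0.03125, adjusted p = 0.0521), again with 6 of 6 libraries above 0, from 0.26 in WT DN2a to 0.99 in ΔTE DN2b. Within the 30% limit, 5 libraries were left with enough stromal barcodes, and the means were 0.13 for all genes and 0.33 for the protein genes.

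The haematopoietic barcodes were then split by lists of T-lineage, innate lymphoid or natural killer (ILC or NK), and myeloid markers, with at least 2 UMIs of 1 list and more than of each other list. These markers are nuclear-encoded, so at a given total of UMIs a barcode with fewer mitochondrial UMIs reaches 2 of them more readily. Over bins of total UMIs this rule by itself can put the ratios of all 3 classes below 0. The ILC or NK list had 2467 UMIs of Nkg7 and 2216 of Zbtb16 in WT DN1, but 0 of Il2rb, 0 of Klrb1c and 2 of Ncr1. In ΔTE DN2b these genes had 1060, 1228, 147, 7 and 57 UMIs. The paper reports Zbtb16 in uncommitted progenitors, so a barcode of this class need not be an ILC or NK cell. T-lineage barcodes (593 to 3246 per library) did not differ detectably from the other haematopoietic barcodes, with a mean log2 ratio of −0.030 ± 0.054 (SD, n = 6; exact permutation p = 0.281, adjusted p = 0.281), 2 libraries above and 4 below 0, and the mean was above 0, at 0.0097, without bins of depth. Within the 30% limit the mean was −0.032, with 0 of 6 libraries above 0 (exact permutation p = 0.03125, adjusted p = 0.0781). ILC or NK barcodes (542 to 1813 per library) were lower in 6 of 6 libraries, from −0.017 in ΔTE DN1 to −0.26 in ΔTE DN2b, with a mean of −0.15 ± 0.093 (SD, n = 6; exact permutation p = 0.03125, adjusted p = 0.0521). Without bins of depth this mean was −0.082, and with bins of nuclear-encoded UMIs it was also −0.082, each with 1 library above 0 (exact permutation p = 0.09375, adjusted p = 0.156, for each). Within the 30% limit it was −0.086. Myeloid barcodes reached 50 barcodes in 4 libraries, all below 0, with a mean of −0.12 ± 0.092 (SD, n = 4; exact permutation p = 0.125, adjusted p = 0.156), and with 4 libraries no p below 0.125 is possible. Within the 30% limit this mean was −0.046, over 3 libraries. It was −0.054 without bins and −0.080 with bins of nuclear-encoded UMIs, each with 1 library above 0.

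**Figure D5:**
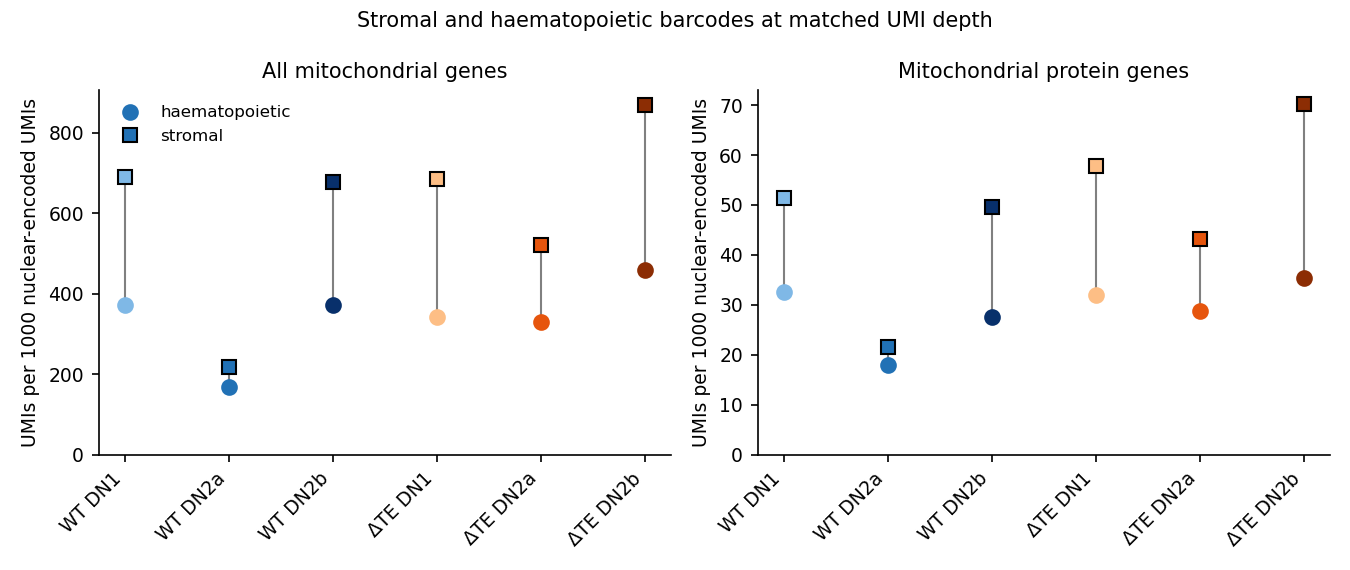
Mitochondrial UMIs per 1000 nuclear-encoded UMIs in stromal (squares) and haematopoietic (circles) barcodes of each library, averaged over the same bins of total UMIs, for all mitochondrial genes (left) and the protein genes (right). The squares are above the circles in all 6 libraries, with the smallest gap in WT DN2a (217 against 168 for all genes).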

How the data were processed

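RNA of 6 sci-RNA-seq3 libraries was analysed. The files that the authors deposited hold raw UMI counts, by gene and by barcode, from before any filter on barcodes. The submitters' processing notes name the build mm9. The aligner, the counter and the treatment of strand and of reads with several matches are not given in the sources used here. The tables hold Ensembl identifiers, so coordinates and sequences were taken by identifier from GENCODE M21 (GRCm38) and none from mm9.

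Barcodes with 200 genes or more and up to 2000 UMIs were summed per library and well, with and without the limit of 30% mitochondrial UMIs. No doublet caller was used, since sums were compared. Levels were divided by the UMIs of nuclear-encoded genes. Ratios carry exact conditional binomial (Clopper-Pearson) 95% intervals, and a ratio was called past 1.5-fold with an interval that leaves out equal levels, on at least 100 UMIs. With 1 library per group, no test between genotypes was made. Classes of barcodes were compared by exact sign-flip permutation over libraries, each needing at least 50 barcodes of the class, and p-values measure the spread between these libraries. The libraries share the feeder line, and marrow was pooled by genotype. These p-values therefore hold no variation between animals or between feeder lines. Mitochondrial transcripts were aligned to nuclear transcripts with BLASTN 2.17.0 (at least 90% identity over 50 bases). Matches on a single autosome were removed before the nuclear copies were listed, so copies there are not covered. Python 3.11.15, NumPy 2.4.6, SciPy 1.17.1, pandas 2.3.3 and matplotlib 3.10.9 were used, and ratios, intervals and the permutation test were tested on simulated data. Every mitochondrial gene could be named, and nuclear genes only from lists (genes for mitochondrial expression, genes that collect ribosomal RNA reads, nuclear copies, cell type markers) and as the 5 most alike over wells. The members, lists and rules were chosen with earlier results of these data known. Alternatives changed the filters, the base, the summing, the bins and the wells or libraries used, and 4 subsets of barcodes were added after seeing the data.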

Additional observations from a re-analysis of the deposited data

Results flagged for a closer look

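The ratio of all mitochondrial genes between ΔTE and WT libraries went in opposite directions between starts: cells started from DN1 gave −0.096 on the log2 scale, those from DN2a gave 1.04 and those from DN2b gave 0.28. The DN1 sign was not stable: its wells overlapped, the ratio was 0.042 without the first WT well, and it was −0.0044 within the 30% limit. The difference between starts was not tested, because each start has 1 library per genotype, and all 3 wells of the WT DN2a library lie below the wells of the other libraries.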

How the results depend on the processing

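Ratios of all mitochondrial genes (of the protein genes in parentheses) for the DN1, DN2a and DN2b starts were as follows. They were −0.17, 1.10 and 0.26 (−0.016, 0.81 and 0.36) over all barcodes, −0.11, 1.04 and 0.30 (−0.0052, 0.75 and 0.38) with at least 300 genes, −0.18, 1.08 and 0.26 (−0.024, 0.79 and 0.37) without the upper limit of UMIs, −0.16, 1.08 and 0.27 (−0.014, 0.79 and 0.38) with the upper limit read as 2000 genes. They were −0.069, 0.83 and 0.19 (0.035, 0.57 and 0.28) per UMI of all genes, −0.11, 1.06 and 0.27 (−0.0027, 0.79 and 0.36) with median-of-ratios size factors, −0.070, 1.04 and 0.26 (0.011, 0.84 and 0.35) with each barcode weighted alike, −0.14, 1.07 and 0.28 (−0.0067, 0.79 and 0.38) with at least 200 nuclear-encoded UMIs in place of 200 genes (chosen after seeing the data). The following subsets of barcodes were also chosen after seeing the data. In stromal barcodes the ratios were −0.024, 1.28 and 0.37 (0.18, 0.96 and 0.50), in haematopoietic barcodes −0.098, 0.97 and 0.27 (−0.024, 0.72 and 0.34) and in barcodes under 200 genes −0.11, 1.07 and 0.32 (0.010, 0.90 and 0.30). Within the 30% limit they were −0.0044, 0.72 and 0.079 (−0.028, 0.68 and 0.23). Leaving out 1 well at a time gave −0.25 to 0.042, 0.83 to 1.20 and 0.12 to 0.46 (−0.0020 to 0.019, 0.72 to 0.89 and 0.30 to 0.43). The DN2a and DN2b ratios stayed above 0 in all of these, while the protein-gene ratio of the DN1 start changed sign with the setting. The cause was not tested. The count of members called higher in the DN2a start lay between 8 (per UMI of all genes) and 15 (no minimum of UMIs). Members called higher in the DN1 start numbered 1 with no minimum of UMIs and 2 in barcodes under 200 genes, and members called higher in the DN2b start 4 in stromal barcodes and 0 to 1 with 1 well left out. Barcodes under 200 genes gave 1 member called lower in the DN2a start and 2 in the DN2b start. The shares of nuclear genes called under these settings are not given here, so these counts have no background beside them. Between classes, leaving out 1 library at a time gave 0.74 to 0.87 for stromal barcodes (0.64 to 0.79 for the protein genes), −0.044 to −0.015 for T-lineage, −0.18 to −0.13 for ILC or NK and −0.16 to −0.082 for myeloid barcodes, with no p below 0.0625 possible for 5 libraries. The T-lineage mean turned to 0.0097 without bins and to 0.028 with bins of nuclear-encoded UMIs, and no class comparison passed the adjusted threshold under any alternative. Comparisons at the smallest possible permutation p of 0.03125 already had an adjusted p of 0.0521 or more. Missing the threshold is therefore no measure of how stable a comparison is.

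No paired analysis was possible because each genotype and start has 1 library. Depth limits mt-Co2, mt-Co3, mt-Nd3, mt-Nd4l, mt-Atp8 and all but 5 transfer RNA genes, whose ratios were not computed, and mt-Atp6, whose intervals are wide.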

Other observations

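AC149090.1, which came up only through the list of genes for ribosomal RNA reads, was lower in the ΔTE library of every start. Whether it collects such reads was not tested. In the first well of ΔTE DN2a, where Lars2 and CT010467.1 were highest, it had 87.3 UMIs per 1000000 nuclear-encoded UMIs. It had 122.0 to 192 UMIs per 1000000 nuclear-encoded UMIs (nuclear CPM) in the wells of WT DN1, 146 to 155 in those of WT DN2a and 117 to 172 in those of WT DN2b. In the 9 wells of the ΔTE libraries it had 69.5 to 93.7, so that every ΔTE well was below every WT well. The log2 ratios were −0.91 (−1.06 to −0.76) between the DN1 libraries, −0.81 (−0.96 to −0.67) between those of DN2a and −0.89 (−1.11 to −0.67) between those of DN2b, each with 1 library per genotype.

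The ratio of mt-Rnr1 to mt-Rnr2, which are cut from the same precursor, ranged over the wells from 0.726 in the third well of WT DN1 to 1.14 in the first well of ΔTE DN2b.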
